A study of Homo sapiens with 4 samples.

Results

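The 10 genes described here encode 8 subunits of the transcription factor AP-1 (FOS, FOSB, FOSL1, FOSL2, JUN, JUNB, JUND and ATF3), the zinc finger transcription factor EGR1 and the phosphatase DUSP1. They were taken by symbol, by a rule that sets no threshold on a measured value, and all 10 were found among the 69222 gene identifiers of the count files. The genes were, however, chosen with earlier results of these data known. Each had reads in all 4 libraries, and all 10 were among the 20319 genes with enough reads to be tested. Read counts came from poly(A) RNA of HEK293T, a line of human embryonic kidney origin with the SV40 large T antigen. A group of 2 libraries, shRPRD1B, came from cells given a short hairpin RNA (shRNA) against RPRD1B by lentivirus, and a group of 2 libraries, shCtrl, from cells given a control shRNA, so both groups carried a lentiviral insert. RPRD1B is a protein that binds the phosphorylated tail of RNA polymerase II. All cells grew in medium with serum, and the labels name no serum withdrawal, growth factor or stress treatment, so the levels below are those of routine culture. The sources used here give neither the number of hairpins, their sequences, the time after transduction nor any use of clones, and do not say that the libraries of a group came from separate cultures; p-values then measure only the spread between these libraries, and that may be technical.

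AP-1 is a dimer of basic leucine zipper proteins: FOS family proteins pair with JUN family proteins, and JUN proteins can also pair with each other. ATF3 can pair with JUN proteins or with itself. Most of these genes, with EGR1 and DUSP1, are immediate early genes, which growth factors and stress switch on within minutes through MAP kinases, without new protein synthesis, and whose mRNAs are mostly short-lived. DUSP1 removes phosphate from ERK, JNK and p38 MAP kinases and so limits the same signals.

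The promoters of these genes hold short sites for the factors that respond to such signals. The stretch of 250 bases before the start site was in the RefSeq table (GRCh38.p14) for 9 of the 10 members, all but FOSL1, with 2 starts for ATF3. It is shown for EGR1, DUSP1 and JUNB, in each of which both shRPRD1B libraries lay below both shCtrl libraries, and for FOS, the textbook immediate early gene, in which the groups overlapped. Capitals mark the CArG box (bound by SRF), TGACGTCA and its first 5 bases TGACG on either strand (bound by CREB and ATF proteins; CGTCA is the reverse strand), TGACATCA (a JUN and ATF site) and TATAAA. The windows are chr5:138465229-138465478 on the plus strand for EGR1, chr5:172771196-172771445 on the minus strand for DUSP1, chr19:12791236-12791485 on the plus strand for JUNB and chr14:75278578-75278827 on the plus strand for FOS, each read 5′ to 3′ in the direction of transcription.
EGR1: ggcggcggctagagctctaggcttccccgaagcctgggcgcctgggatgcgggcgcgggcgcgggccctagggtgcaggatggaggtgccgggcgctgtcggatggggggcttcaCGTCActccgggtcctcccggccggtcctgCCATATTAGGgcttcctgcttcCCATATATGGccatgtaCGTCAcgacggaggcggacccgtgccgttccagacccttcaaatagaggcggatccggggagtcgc
DUSP1: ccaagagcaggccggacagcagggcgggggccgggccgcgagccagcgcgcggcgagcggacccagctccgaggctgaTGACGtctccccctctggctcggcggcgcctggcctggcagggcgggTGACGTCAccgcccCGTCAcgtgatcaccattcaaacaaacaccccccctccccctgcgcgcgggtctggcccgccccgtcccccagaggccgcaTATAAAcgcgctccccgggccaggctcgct
JUNB: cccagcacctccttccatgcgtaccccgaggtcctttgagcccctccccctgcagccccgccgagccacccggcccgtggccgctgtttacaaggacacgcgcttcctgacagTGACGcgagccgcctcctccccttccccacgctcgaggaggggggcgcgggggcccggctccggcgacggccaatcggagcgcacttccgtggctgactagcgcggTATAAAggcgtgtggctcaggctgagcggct
FOS: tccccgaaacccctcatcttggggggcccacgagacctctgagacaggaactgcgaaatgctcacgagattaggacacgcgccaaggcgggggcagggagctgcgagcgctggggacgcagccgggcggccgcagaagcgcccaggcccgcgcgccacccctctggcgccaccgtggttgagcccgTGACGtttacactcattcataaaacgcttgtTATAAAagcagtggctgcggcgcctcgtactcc

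In the EGR1 window 2 CArG boxes began 105 and 83 bases before the start, and CGTCA began at 135 and 66 bases. No other member's window held a CArG box, and 1.17% of 34788 distinct windows of this length in the table held at least 1. The DUSP1 window held TGACGTCA at 125 bases, TGACG at 172, CGTCA at 111 and TATAAA at 30. TGACGTCA was also found in JUND, at 200 bases, and in 1.64% of all windows. TGACG on either strand, alone or inside TGACGTCA, was in the windows of 8 of the 9 members, all but ATF3, and in 21.2% of all windows. TGACATCA was found in JUN, at 67 bases, and in ATF3, and in 2.36% of all windows. TATAAA was found 30 to 33 bases before the start in FOS, FOSB, JUNB and DUSP1, and in 10.8% of all windows. In ATF3 it lay 230 bases before 1 of the 2 starts. The AP-1 site TGACTCA was in none of the members' windows and in 4.21% of all windows, and the EGR1 sites GCGTGGGCG and GCGGGGGCG were in none of them and in 0.722% and 4.72% of all windows. These matches describe the letters and not the binding of a factor.

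In the 3′ untranslated regions of GENCODE 29, all 10 members had at least 1 ATTTA, the core of the AU-rich elements that speed mRNA decay, as did 64.4% of 18937 such regions. The nonamer ATTTATTTA was found in FOS and DUSP1, once each, and in 6.31% of the regions. The 30 bases around it are shown because it is shared by a member whose groups overlapped, FOS, and a member whose groups did not, DUSP1. The stretches are chr14:75282058-75282087 on the plus strand for FOS and chr5:172768640-172768669 on the minus strand for DUSP1, and capitals mark the nonamer within each.
FOS: tgtgtttttaATTTATTTAttaagatggat
DUSP1: gctggtccttATTTATTTAacttcacccga

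Total counts were between 54722140 and 65572391 in shRPRD1B and between 47732913 and 48494258 in shCtrl. RPRD1B itself had 27.2 and 35.5 CPM (counts scaled to library size with TMM factors) in shRPRD1B and 50.4 and 50.1 CPM in shCtrl, a ratio of 0.624. Its log2 fold change was -0.68 ± 0.16 (SE), with an adjusted p of 0.448 by edgeR's quasi-likelihood test and of 0.0467 by DESeq2. Of the markers of an embryonic kidney line, 8 of 9 exceeded 1 CPM in all libraries, with summed levels of 452 to 598 CPM in shRPRD1B and 572 to 594 CPM in shCtrl. Fibroblast markers did so for 2 of 7 (sums 22.2 to 24.6 CPM in shRPRD1B and 33.6 to 38 CPM in shCtrl, with COL1A2 at 0 in all 4), leukocyte markers for 1 of 7 (sums 3.12 to 4.56 and 4.67 to 4.89 CPM) and endothelial markers for 0 of 5 (sums 0.62 to 0.87 and 1.1 to 1.15 CPM). Their part in the results below was not tested. A low count does not show a low level of a transcript here, since POLR2A, which every cell uses, had 1.04 and 1.28 CPM in shRPRD1B and 1.37 and 0.76 CPM in shCtrl.

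Of the 10 members, 8 had a lower and 2 a higher fitted level in shRPRD1B, and the median log2 fold change was -0.26, against 0.00 over all tested genes. This median was -0.07 without shRPRD1B 2 and -0.57 without shRPRD1B 1, so shRPRD1B 2 carried most of it. None passed the threshold of 0.05 after Benjamini-Hochberg adjustment over all genes in edgeR's quasi-likelihood test, which called 0.0689% of all genes. At an unadjusted p under 0.05 that test had 3 members lower, FOSL1, EGR1 and DUSP1, where 3.94% of all genes were lower, and 0 members higher, where 3.55% of all genes were higher. limma voom called 0 members and 0% of all genes, with 3 members and 7.19% of all genes at an unadjusted p under 0.05. DESeq2 called 1 member, FOSL1, and 1.18% of all genes. In 4 members, FOSL1, JUNB, EGR1 and DUSP1, both shRPRD1B libraries lay below both shCtrl libraries, as in 20.6% of all genes, and in 0 members did both lie above, as they did in 20.3% of all genes. With 2 libraries a group, no exact permutation test can give a two-sided p below 0.333. In bulk RNA, fewer cells that express a gene and less of its RNA per cell cannot be told apart.

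**Figure D1:**
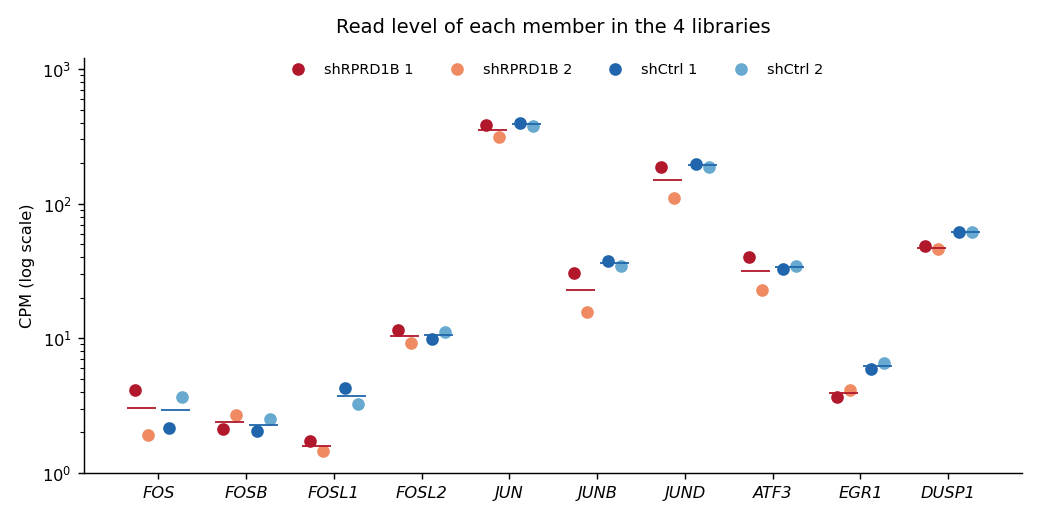
CPM (log axis) of the 10 members in shRPRD1B 1, shRPRD1B 2, shCtrl 1 and shCtrl 2, with 1 point per library and a bar at each group mean. JUN and JUND lie above 100 CPM in every library, FOS, FOSB and FOSL1 below 5 CPM, and the groups are apart in FOSL1, JUNB, EGR1 and DUSP1.

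The FOS family holds the members that bring the strongest transactivation domains to the dimer (FOS and FOSB) and those that lack one (FOSL1 and FOSL2, also called FRA-1 and FRA-2). FOSL1 (ENSG00000175592.9, chr11:65892049-65900545), a target of ERK signalling and of AP-1 itself, had 1.72 and 1.46 CPM in shRPRD1B, against 4.24 and 3.23 CPM in shCtrl, from 113 and 80 counts and from 201 and 157 counts. Both shRPRD1B libraries were low and close to each other, and the groups did not overlap. The means were 1.59 ± 0.187 CPM in shRPRD1B and 3.73 ± 0.719 CPM in shCtrl (SD, n = 2 each), so that FOSL1 stood at 0.429 of its shCtrl level. The log2 fold change was -1.22 ± 0.27 (SE; 95% interval -1.88 to -0.56). By edgeR's quasi-likelihood test the p was 0.00421, the 206th smallest of all genes, and the adjusted p was 0.41. DESeq2 gave an adjusted p of 0.0456, so FOSL1 fell by that test and was not called by edgeR's. Its lowest library, with 80 counts, carried a counting error of 11.2%.

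FOS (ENSG00000170345.10, chr14:75278828-75282230), the founding member of the family, had 4.11 and 1.92 CPM in shRPRD1B, against 2.15 and 3.68 CPM in shCtrl. Each group held a high and a low library, and the groups overlapped throughout. The log2 fold change was 0.06 ± 0.44 (95% interval -1.03 to 1.16, edgeR's adjusted p = 0.977). Its interval was the widest of the 10. FOSB (ENSG00000125740.14, chr19:45467996-45475179), the closest relative of FOS, had 2.11 and 2.7 CPM in shRPRD1B, against 2.05 and 2.51 CPM in shCtrl. Its log2 fold change was 0.07 ± 0.27 (95% interval -0.59 to 0.73, edgeR's adjusted p = 0.954), and the groups overlapped.

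FOSL2 (ENSG00000075426.12, chr2:28392858-28417317) had the most reads of the family, with 11.6 and 9.3 CPM in shRPRD1B, against 9.94 and 11.1 CPM in shCtrl. The groups covered nearly the same range. Its log2 fold change of -0.01 ± 0.18 (95% interval -0.47 to 0.45, edgeR's adjusted p = 0.991) was the nearest to 0 of the 10. FOSL1 was thus the one member of its family whose groups did not overlap, and the family's median log2 fold change was 0.03. Whether FOSL1 differed from its relatives was not tested.

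The JUN family supplied most of the AP-1 reads. JUN (ENSG00000177606.8, chr1:58780791-58784047), the partner that JNK phosphorylates, had 385 and 315 CPM in shRPRD1B, against 400 and 380 CPM in shCtrl. The lower shRPRD1B library was below both controls and the higher one between them, so the groups overlapped. Its log2 fold change was -0.15 ± 0.14 (95% interval -0.49 to 0.18, edgeR's adjusted p = 0.784).

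JUNB (ENSG00000171223.6, chr19:12791486-12793315), which often opposes JUN in proliferation, had 30.3 and 15.7 CPM in shRPRD1B, against 37.7 and 34.4 CPM in shCtrl. The shRPRD1B libraries differed from each other by more than the higher of them differed from the controls. The means were 23 ± 10.4 CPM in shRPRD1B and 36.1 ± 2.29 CPM in shCtrl (SD). The log2 fold change of JUNB was -0.65 ± 0.30 (95% interval -1.40 to 0.11, edgeR's adjusted p = 0.69). Without shRPRD1B 2 the JUNB value was -0.25, and without shRPRD1B 1 it was -1.20. Exons of HOOK2, on the opposite strand, cover 259 of the 1820 exon bases of JUNB (14.2%), and the strand setting of the counting was not given in the sources used here, so the genes' reads may not be fully separated. HOOK2 had 27.3 and 23.1 CPM in shRPRD1B and 30.7 and 26.5 CPM in shCtrl. The other 9 members share no exon base with another gene of GENCODE 29.

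JUND (ENSG00000130522.6, chr19:18279694-18281622), the JUN protein usually present in resting cells, had 187 and 110 CPM in shRPRD1B, against 198 and 187 CPM in shCtrl. The shRPRD1B 1 value lay just inside the control range and the shRPRD1B 2 value far below it. Its log2 fold change was -0.37 ± 0.25 (95% interval -0.99 to 0.24, edgeR's adjusted p = 0.739). The median of the 3 JUN genes was -0.04 in shRPRD1B 1 alone and -0.80 in shRPRD1B 2 alone, each set against the control mean.

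**Figure D2:**
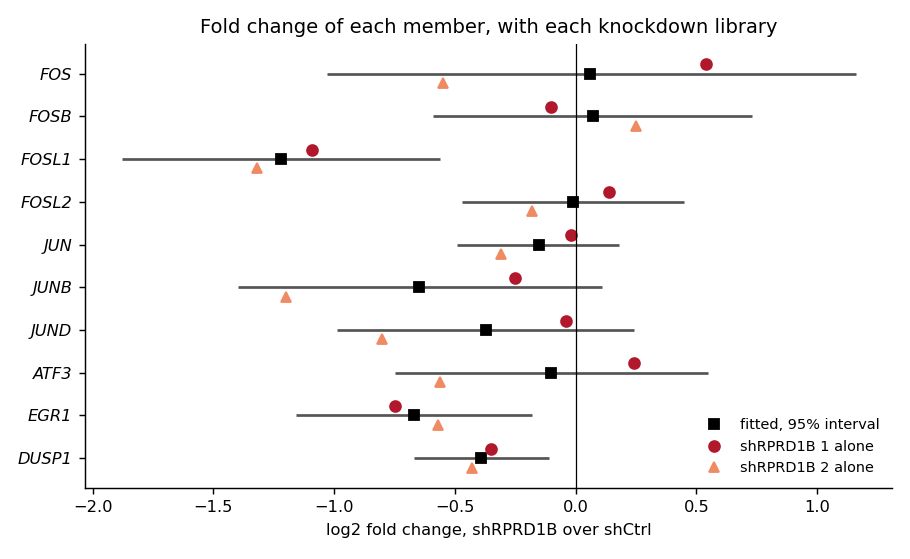
Log2 fold change of each member, shRPRD1B over shCtrl: squares with lines are fitted values with 95% intervals, circles shRPRD1B 1 alone and triangles shRPRD1B 2 alone against the shCtrl mean. Both knockdown libraries fall left of 0 and close together for FOSL1, EGR1 and DUSP1, and far apart for FOS, JUNB, JUND and ATF3.

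Levels of different genes were compared per length, as CPM per kilobase of 1 GENCODE 29 transcript. On that scale JUN had the highest level in both groups, with 98.9 ± 14 in shRPRD1B and 110 ± 3.88 in shCtrl (SD, n = 2 each). JUND followed with 79.9 ± 29.2 in shRPRD1B and 103 ± 4.4 in shCtrl. The library ranges of JUN and JUND overlapped in shRPRD1B and lay apart by little in shCtrl. DUSP1 came next, at 23.3 ± 0.823 in shRPRD1B and 30.5 ± 0.0746 in shCtrl. JUNB (12.6 ± 5.69 in shRPRD1B and 19.8 ± 1.26 in shCtrl) and ATF3 (15.5 ± 5.91 and 16.6 ± 0.639) were close, with overlapping ranges in shRPRD1B and separate ones in shCtrl.

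The remaining members lay far lower on the CPM per kilobase scale. In shCtrl their order was FOSL1 (2.24 ± 0.431), EGR1 (1.98 ± 0.159), FOSL2 (1.57 ± 0.126), FOS (1.35 ± 0.5) and FOSB (0.603 ± 0.086), where FOSL1 overlapped EGR1, and FOSL2 overlapped FOS. In shRPRD1B the order was FOSL2 (1.56 ± 0.239), FOS (1.4 ± 0.718), EGR1 (1.25 ± 0.108), FOSL1 (0.954 ± 0.112) and FOSB (0.637 ± 0.111), and the range of FOS overlapped those of FOSL2, EGR1 and FOSL1. FOSL1, first of these 5 in shCtrl, was therefore number 4 in shRPRD1B.

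The FOS family summed to 5.22 and 3.86 CPM per kilobase in shRPRD1B and to 5.56 and 5.96 in shCtrl. The JUN family summed to 226 and 157 in shRPRD1B and to 240 and 227 in shCtrl. Of the 7 genes together, the JUN family made up 97.7% and 97.6% in shRPRD1B and 97.7% and 97.4% in shCtrl. The FOS family was thus a small part of this summed level in all 4 libraries. ATF3 was not part of the sum. Within the FOS family, FOSL1 made up 19.8% and 22.6% in shRPRD1B, against 45.7% and 32.4% in shCtrl. The FOSL2 share was 33% and 35.9% in shRPRD1B, against 26.6% and 27.8% in shCtrl. The FOS share varied within both groups, at 36.5% and 23% in shRPRD1B and 17.9% and 28.6% in shCtrl. Within the JUN family, shRPRD1B 2 stood apart: JUN made up 48.1% and 56.8% in shRPRD1B, against 47% and 47.4% in shCtrl, and JUND 44.5% and 37.8% in shRPRD1B, against 44.4% and 44.3% in shCtrl.

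**Figure D3:**
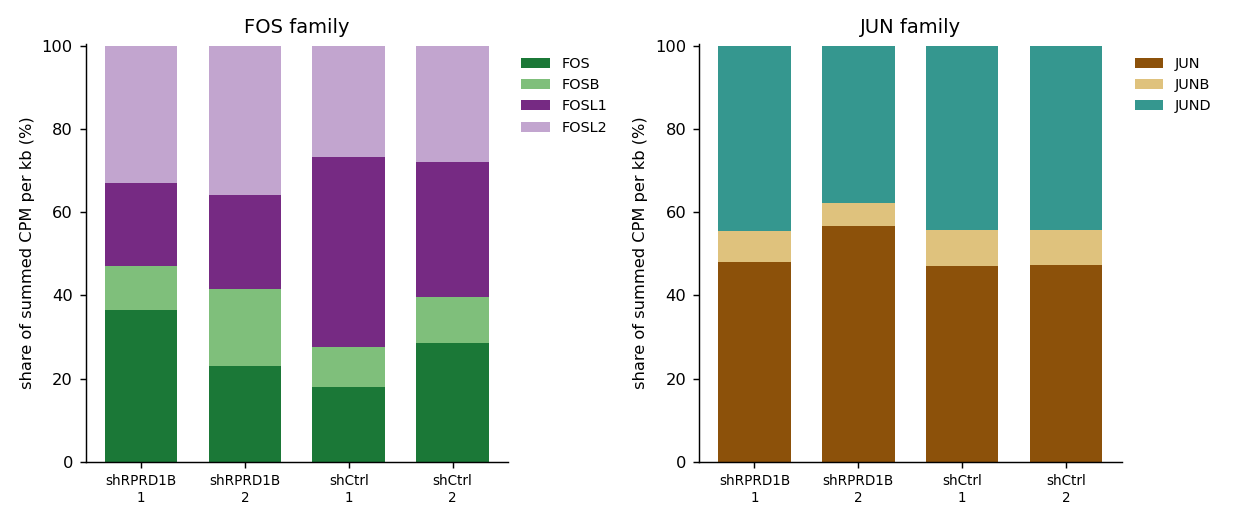
Share of each gene in the summed CPM per kilobase of the FOS family (left) and the JUN family (right), with 1 stacked bar per library, shRPRD1B libraries left of shCtrl libraries. FOSL1 takes 19.8% and 22.6% of the FOS family in shRPRD1B and 45.7% and 32.4% in shCtrl.

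ATF3 (ENSG00000162772.17, chr1:212565407-212620777), a stress-induced repressor and partner of JUN proteins, had 40 and 23 CPM in shRPRD1B, against 32.9 and 34.7 CPM in shCtrl. One shRPRD1B library was above and the other below both controls. Its log2 fold change was -0.10 ± 0.26 (95% interval -0.75 to 0.55, edgeR's adjusted p = 0.93).

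EGR1 (ENSG00000120738.8, chr5:138465479-138469303), the zinc finger factor that SRF and its partners induce through the CArG boxes shown above, had 3.68 and 4.16 CPM in shRPRD1B, against 5.87 and 6.58 CPM in shCtrl. The libraries of each group lay close to each other, and the groups did not overlap. The means were 3.92 ± 0.34 CPM in shRPRD1B and 6.22 ± 0.5 CPM in shCtrl, a ratio of 0.629. The log2 fold change was -0.67 ± 0.20 (95% interval -1.16 to -0.18), with a p of 0.0163 and an adjusted p of 0.577 by edgeR's quasi-likelihood test and an adjusted p of 0.368 by DESeq2. FOS, which SRF also induces, through an element upstream of the window shown, had overlapping groups and an interval from -1.03 to 1.16. The part of SRF in the values of either gene was not tested.

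DUSP1 (ENSG00000120129.6, chr5:172768096-172771195), the MAP kinase phosphatase, had the tightest replicates of the 10. It had 48.2 and 45.8 CPM in shRPRD1B, against 61.5 and 61.7 CPM in shCtrl. The groups were apart by several times the spread within either. The means were 47 ± 1.66 CPM in shRPRD1B and 61.6 ± 0.151 CPM in shCtrl, so that DUSP1 stood at 0.763 of its level in shCtrl. The log2 fold change was -0.39 ± 0.11 (95% interval -0.67 to -0.11). Its p was 0.0139 and its adjusted p 0.57 by edgeR's quasi-likelihood test, and DESeq2 gave an adjusted p of 0.359, so neither test called it.

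For FOSL1, EGR1 and DUSP1, the fit without shRPRD1B 1 and the fit without shRPRD1B 2 each passed the threshold, with edgeR's adjusted p as low as 0.00295, 0.0182 and 0.0008 for the 3 genes in that order. These fits called far more of the whole table, 29.1% of all genes without shRPRD1B 1 and 10.4% without shRPRD1B 2, so the passes do not single out these 3 genes. Without shCtrl 1, where 0.255% of all genes were called, or shCtrl 2, where 0.246% were, none of the 3 passed, with an adjusted p as high as 1. Such a fit takes the spread of a lone library from the other group. The count of members called was 7 without shRPRD1B 1, adding ATF3, JUN, JUNB and JUND, beside that 29.1% of all genes, and 3 without shRPRD1B 2, beside the 10.4%.

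The shRPRD1B libraries differed from each other with the GC content of the transcript, and several members are rich in GC. Among the 18958 tested genes with a GENCODE 29 transcript, the GC-richest group (62.2% to 83.9% GC) had a median log2 ratio of -0.36 for shRPRD1B 2 over shRPRD1B 1 and of -0.07 for shCtrl 2 over shCtrl 1. JUND, with 69.7% GC, had a ratio of -0.76 in shRPRD1B, where 109 genes within 1 point of GC had a median of -0.31 (SD 0.64). JUNB, with 64.9% GC, had a ratio of -0.95, where 587 such genes had a median of -0.35 (SD 0.69). ATF3, with 50.8% GC, had a ratio of -0.80, and FOS, with 52.6% GC, a ratio of -1.09, where genes of like GC had medians of 0.00 (SD 0.65) and -0.04 (SD 0.66). These SDs cover genes of all read levels. Among genes within a factor of 2 of the member's mean CPM, few had a wider gap between the shRPRD1B libraries. The share was 2.06% for JUND, 2.65% for JUNB, 3.95% for ATF3 and 9.95% for FOS. For the other members it was 38.4% to 84.3%. The cause of these gaps was not tested. With a correction for GC and length, chosen after the data were seen, JUNB had a log2 fold change of -0.59, JUND of -0.27, FOSL1 of -1.13, EGR1 of -0.65 and DUSP1 of -0.32, and the members' median was -0.21.

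**Figure D4:**
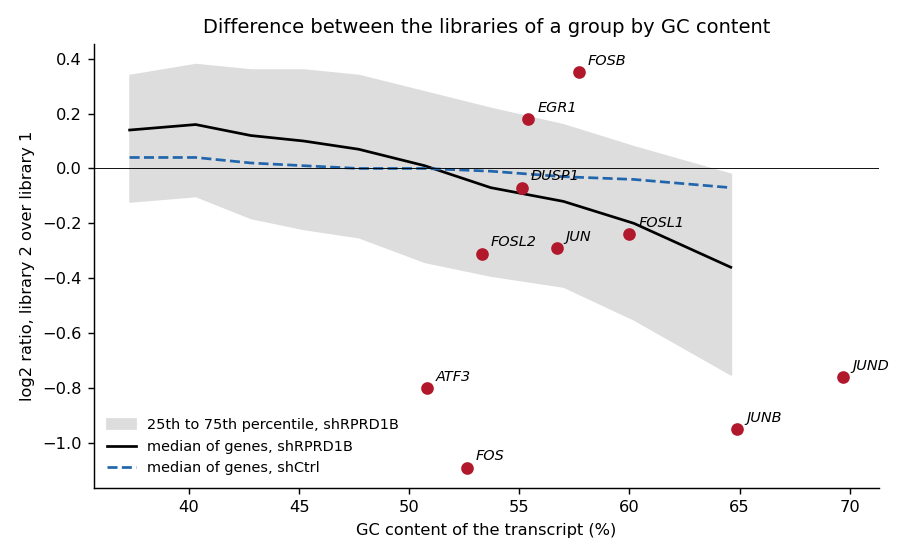
Log2 ratio of library 2 over library 1 within each group against the GC content of the transcript (%), with lines for the median of genes, shading from the 25th to the 75th percentile of genes in shRPRD1B, and points for the members in shRPRD1B. The solid shRPRD1B line drops to -0.36 at high GC, and FOS, JUNB, JUND and ATF3 are the lowest of the points.

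By the distance between log2 CPM values centred on the mean of the 4 libraries, the genes with the pattern most like that of FOSL1 among 12401 candidates were PUF60 (distance 0.201), TMEM47 (0.204), BTBD19 (0.237), CDA (0.244) and GIPC3 (0.25). Those most like EGR1 were LRRC63 (0.0571), CXADR (0.0635), EPHA3 (0.0732), PMFBP1 (0.0759) and ACP3 (0.0796). With 4 libraries such likeness describes the order of the libraries and little more.

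Around the members, 8 lists held 165 genes of the pathway, of which 151 were tested. Of these, 84 had a higher fitted level in shRPRD1B, the median log2 fold change was 0.03, and edgeR's quasi-likelihood test with adjustment over all genes called 0. At an unadjusted p under 0.05 it had 6 of the 151 higher and 10 lower, beside 3.55% and 3.94% of all genes, shares against which the counts of each list below also stand. limma voom called 0 here, as over the whole table, and DESeq2 called 3 lower, MAPK13, BATF3 and DUSP8, beside 1.18% of all genes in either direction.

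Upstream of the members, the ERK cascade list, from growth factor receptors to the RSK kinases, had 24 of 25 genes tested, 11 higher and 13 lower in fitted level, with a median of -0.01. At an unadjusted p under 0.05 it had 0 higher and 2 lower. MAP2K1, which encodes the ERK kinase MEK1, had 73.1 and 71.8 CPM in shRPRD1B, against 90.2 and 92.3 CPM in shCtrl (log2 fold change -0.33 ± 0.11, edgeR's adjusted p = 0.604). ERBB3, a receptor of neuregulins, had 5.27 and 2.08 CPM in shRPRD1B, against 7.11 and 8.53 CPM in shCtrl (-1.07 ± 0.41, adjusted p = 0.66). RPS6KA2, an RSK kinase gene, had a value of 0.34 ± 0.16.

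The JNK and p38 list had all 20 genes tested, 13 higher and 7 lower in fitted level, with a median of 0.09 and, at an unadjusted p under 0.05, 1 higher and 2 lower. MAPK13, which encodes the delta isoform of p38, had 13.5 and 13.2 CPM in shRPRD1B, against 20.4 and 23.9 CPM in shCtrl. Its groups were apart, and its log2 fold change of -0.73 ± 0.15 had an adjusted p of 0.388 by edgeR's quasi-likelihood test and of 0.0177 by DESeq2. MAPK10, the neuronal JNK3 gene, had a value of -0.87 ± 0.29, MAP3K1 of 0.44 ± 0.17 and MAP3K7, the TAK1 gene, of -0.26 ± 0.12, none called by either tool.

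The feedback inhibitors, which include other DUSP phosphatases, had 17 of 21 genes tested, 11 higher and 6 lower in fitted level, with a median of 0.09 and 2 higher and 2 lower at an unadjusted p under 0.05. DUSP5, a nuclear phosphatase of ERK, had 8.21 and 6.53 CPM in shRPRD1B, against 10.7 and 10.2 CPM in shCtrl (-0.50 ± 0.19, edgeR's adjusted p = 0.66), the same sign as DUSP1. SPRED3 and RASA1, inhibitors of RAS signalling, had values of 0.78 ± 0.24 and 0.35 ± 0.12, and DUSP7 of 0.28 ± 0.12. DUSP8, a phosphatase of JNK and p38 that the naming rule does not cover and that was picked after its values were seen, was called by DESeq2. It had 12 and 1 counts in shRPRD1B and 122 and 16 counts in shCtrl, so 1 control library supplied most of its reads. It passed the low-count filter through the shCtrl libraries alone.

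Among 16 factors that act on immediate early promoters, SRF, its ELK and MRTF partners and CREB with its cofactors, all were tested, 13 were higher and 3 lower in fitted level, with a median of 0.11 and 0 higher and 1 lower at an unadjusted p under 0.05. CREM, a relative of CREB, had 26.1 and 20.2 CPM in shRPRD1B, against 31.2 and 31.8 CPM in shCtrl (-0.44 ± 0.16, edgeR's adjusted p = 0.656). CREBBP, the coactivator of CREB, had 110 and 207 CPM in shRPRD1B, against 106 and 119 CPM in shCtrl, with a value of 0.50 ± 0.29, and only shRPRD1B 2 was above both controls. MRTFB and ELK4 had values of 0.35 ± 0.19 and 0.24 ± 0.14.

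Other bZIP genes, whose proteins pair with AP-1 subunits, had 15 of 16 tested, 7 higher and 8 lower in fitted level, with a median of -0.19 and 0 higher and 1 lower at an unadjusted p under 0.05. BATF3, a partner of JUN proteins known from dendritic cells, had 15.5 and 9.94 CPM in shRPRD1B, against 25.5 and 22 CPM in shCtrl. Its groups were apart, and its log2 fold change of -0.89 ± 0.24 had an adjusted p of 0.525 by edgeR's quasi-likelihood test and of 0.0496 by DESeq2. CREB5 and MAFG had values of -0.22 ± 0.12 and 0.20 ± 0.11.

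Other immediate early genes were spread around 0: 26 of 28 were tested, 12 higher and 14 lower in fitted level, with a median of -0.01 and 1 higher and 2 lower at an unadjusted p under 0.05. MYC, the growth regulator, had 140 and 103 CPM in shRPRD1B, against 178 and 164 CPM in shCtrl (-0.49 ± 0.17, edgeR's adjusted p = 0.644). GADD45B, a stress sensor, had 10.5 and 11.3 CPM in shRPRD1B, against 16.4 and 14 CPM in shCtrl (-0.48 ± 0.16, adjusted p = 0.636). PLK2, a polo-like kinase, had 10 and 9.8 CPM in shRPRD1B, against 6.4 and 6.95 CPM in shCtrl (0.57 ± 0.17, adjusted p = 0.577). CCN2, a matricellular protein gene, had 4.21 and 10 CPM in shRPRD1B, against 3.23 and 3.8 CPM in shCtrl (a fitted ratio of 2, with an interval from -0.08 to 2.09 on the log2 scale, adjusted p = 0.682). These 4 were named for having the smallest p among the genes of the list with a mean of at least 1 CPM. Over its 26 tested genes, the groups were apart with shRPRD1B higher in 4 and lower in 7, where 20.3% and 20.6% of all genes were.

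The factors that bind AU-rich elements or degrade mRNA, such as the ZFP36 and CCR4-NOT proteins, had all 17 genes tested, 12 higher and 5 lower in fitted level, a median of 0.13 and 0 in either direction at an unadjusted p under 0.05. Values were -0.31 ± 0.13 for CNOT7, 0.24 ± 0.12 for ZFP36L1, 0.23 ± 0.11 for CNOT8 and 0.22 ± 0.11 for KHSRP.

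Downstream, textbook targets of AP-1 had 17 of 23 genes tested, 5 higher and 12 lower in fitted level, with a median of -0.10 and 2 higher and 0 lower at an unadjusted p under 0.05. CCND1, which encodes cyclin D1, had 97.7 and 87.1 CPM in shRPRD1B, against 70.2 and 73.8 CPM in shCtrl (0.36 ± 0.12, edgeR's adjusted p = 0.623). CD44, a hyaluronan receptor gene, had 4.15 and 4.78 CPM in shRPRD1B, against 3.25 and 2.4 CPM in shCtrl (0.66 ± 0.25, adjusted p = 0.66). Both had the sign opposite to that of FOSL1. TIMP1, an inhibitor of matrix metalloproteinases, had a value of -0.29 ± 0.14, and genes with too few reads to be tested included MMP1, MMP3, MMP10, CXCL8 and IL6.

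**Figure D5:**
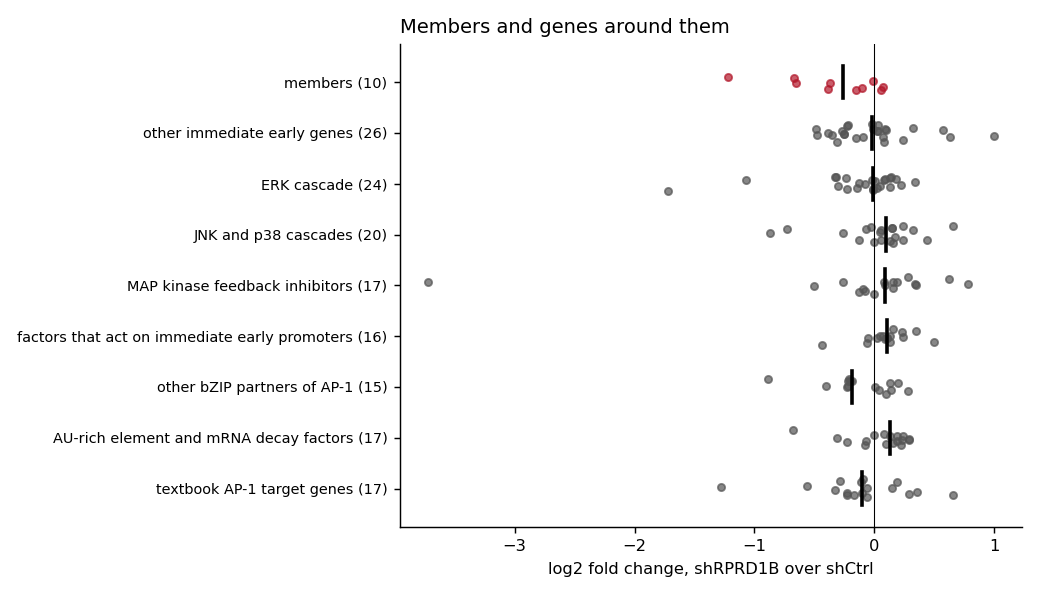
Log2 fold change, shRPRD1B over shCtrl, of the members and of the tested genes of the 8 lists, with 1 point per gene and a mark at each median; the number of tested genes follows each name. The members' median is -0.26, and those of the lists run from -0.19 to 0.13.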

How the data were processed

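Poly(A) RNA of 2 shRPRD1B and 2 shCtrl samples of HEK293T cells was measured. The deposited values are whole-number read counts per gene, and per the submitters' processing notes the authors used Trim Galore, HISAT2, featureCounts and the build hg38. Versions, annotation release and the handling of strand and multi-mapping reads were not given in the sources used here, so overlapping genes or near-identical copies could share reads. Totals per library lay between 47732913 and 65572391 counts.

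Of 69222 identifiers, 62686 matched a symbol in the RefSeq table (GRCh38.p14). Lengths, GC contents and 3′ untranslated regions came from GENCODE 29, with the principal transcript of a gene. edgeR 4.0.16 (R 4.3.3) was run with TMM factors, filterByExpr (minimum count 10) and the robust quasi-likelihood fit with the group as its only term. The Benjamini-Hochberg adjustment ran over 20319 genes, with a threshold of 0.05. Errors of fold changes are SEs of this fit, and CPM used TMM-scaled library sizes.

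The members and the 8 lists were chosen with earlier results of these data known. The text names all 10 members, RPRD1B, up to 4 genes of each list with the smallest edgeR p and a mean of at least 1 CPM, and the 5 protein-coding genes nearest to the member with the smallest p and to EGR1; a few of the list genes are not reported here. HOOK2, POLR2A, HRAS, DUSP8 and the untested list genes given were named outside that rule, after their values were seen.

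Alternatives were 3 other scalings, DESeq2 1.42.0, limma voom 3.58.1, 2 other filters, the replicate number as a block, each library left out and the longest transcript as length. An older edgeR fit and a GC and length correction (mgcv 1.9.3) were added after the data were seen. The libraries of a group differed beyond sampling noise (chi-square over its degrees of freedom was 98.6 in shRPRD1B and 8.97 in shCtrl), so none was taken as a second deposit of another. That does not show separate cultures. Counting errors and intervals do not cover variation between cultures.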

Additional observations from a re-analysis of the deposited data

How the results depend on the processing

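The number of genes called over the whole table, 14, was 240 with DESeq2, 0 with limma voom (1460 at an unadjusted p under 0.05), 40 with no low-count filter, 0 with at least 5 CPM in 2 libraries (876 at an unadjusted p under 0.05), 7 with the older edgeR fit, 46 with the GC and length correction, and between 54 and 6235 with 1 library left out. The members called, 0, were 1 with DESeq2 (FOSL1) and between 0 and 7 with 1 library left out. The list genes called, 0, were 3 with DESeq2 (BATF3, DUSP8 and MAPK13), beside 1.18% of all genes. They were between 1 and 74 with 1 library left out. The 74, of 152 tested in that fit, and the 7 members came without shRPRD1B 1, beside 29.1% of all genes. A lone library's spread is taken from the other group there, so these shares were not weighed against each other. The lowest were HRAS without shCtrl 1, beside 0.255% of all genes, and DUSP8 without shCtrl 2, beside 0.246%. HRAS had 3.04 CPM in shCtrl 1 and 21.2 CPM in shCtrl 2, against 4.53 and 2.75 CPM in shRPRD1B. Its call thus rested on 1 high control library. The members' median, -0.26, ran from -0.57 to -0.07 with 1 library left out. The sign changed with 1 library left out for FOS (-0.61 to 0.49), FOSB (-0.11 to 0.25), FOSL2 (-0.18 to 0.14) and ATF3 (-0.56 to 0.24). FOSL1 ran from -1.41 to -1.01, EGR1 from -0.76 to -0.58, DUSP1 from -0.42 to -0.35, JUN from -0.30 to -0.01, JUNB from -1.20 to -0.25, JUND from -0.80 to -0.04 and RPRD1B from -0.88 to -0.50. The cause was not tested.

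The replicate numbers are shared by the groups, but the deviations of same-numbered libraries correlated at 0.209 over 8966 genes with only 2 pairs, so they were not taken to pair the samples. With the replicate number as a block, 141 genes, 0 members (FOSL1 adjusted p = 0.123 by edgeR) and 1 list gene (DUSP8) were called. Under the 5 CPM filter FOS, FOSB and FOSL1 had no value. For the FOS and JUN family genes the transcript used was already the longest. The longest transcript as length therefore could not change the shares and did not test them. In the library with the fewest reads of each, the counting error was 9.9% for FOS, 10.2% for FOSB and 11.2% for FOSL1.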
